A study of Rattus norvegicus with 36 samples.

Results

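The matrix metalloproteinase (MMP), ADAMTS, ADAMTS-like (ADAMTSL) and TIMP genes of the rat aorta are described here. They were taken by symbol: every row of the gene table whose name begins with Mmp, Timp, Adamts or Adamtsl followed by a digit. This gave 49 genes of the 26106 listed, with 21 MMP, 19 ADAMTS, 5 ADAMTSL and 4 TIMP genes. A gene was counted as measured when its mean normalised value over all libraries was at least 0.5, which held for 37 of the 49: 12 MMP, 16 ADAMTS, all 5 ADAMTSL and all 4 TIMP genes. A normalised value is a gene's read number scaled by one factor per library. It is not scaled to gene length, so levels are compared between libraries and not between genes.

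The study sequenced total RNA from a piece of thoracic descending aorta of male rats. The rats were S2Ba, a congenic strain with the distal portion of Brown Norway (BN) chromosome 2 on the Dahl salt-sensitive background; S2Bb, a congenic strain with a middle segment of the same BN chromosome; and SS, the salt-sensitive parent strain. Feeding began at 4 to 6 weeks of age and ended at 12 to 13 weeks, on a high salt diet with 4% NaCl or on a normal salt diet. Values were held for 5 S2Ba high-salt, 6 S2Ba normal-salt, 6 S2Bb high-salt, 6 S2Bb normal-salt, 5 SS high-salt and 6 SS normal-salt libraries; S2Ba high-salt replicate 2 and SS high-salt replicate 3 were not analysed here. All groups share the SS genome outside the BN segment, and no cell type was separated per the labels, so each value covers all cell types of the piece. In such bulk samples fewer cells of a type and less RNA per cell cannot be told apart.

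MMPs are zinc endopeptidases that cut collagens, elastin, gelatins and proteoglycans; some are secreted and some are anchored in the cell membrane. ADAMTS proteases are secreted relatives with thrombospondin repeats: one branch cuts the large proteoglycans versican and aggrecan, another removes the amino-terminal propeptide of fibrillar procollagens, and further members act on fibrillin microfibrils or on cartilage oligomeric matrix protein. ADAMTSL proteins have the repeats but no catalytic domain, and several bind fibrillin microfibrils. TIMPs are the tissue inhibitors of these enzymes. In arteries the balance of these genes is known for its part in the turnover of collagen, elastin and proteoglycan in the wall.

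The libraries held between 8753735 and 15168833 recovered reads. All 6 smooth muscle markers were measured, and their summed level was 18657 to 25941 over the libraries. By number of genes with reads, cartilage and bone genes or macrophage markers, 5 libraries stood apart. SS normal-salt replicates 1 and 2 had reads for 20924 and 22207 genes, against 15645 to 17151 in the other 32 libraries. SS normal-salt replicate 3 held 2620.0 reads of Col2a1, the cartilage collagen gene, against 34 reads in the other 33 libraries together, and 187 reads of Bglap, the osteocalcin gene, against 12; these cartilage and bone genes were chosen after their values were seen. Summed macrophage markers were highest in replicate 1 of S2Bb on high salt and replicate 4 of S2Ba on high salt, at 797 and 789.9, against at most 477 in any other library. These last 3 were left out together as the cartilage- and macrophage-rich libraries, and SS normal-salt replicates 1 and 2 were left out together as a separate setting, both chosen after the data were seen. S2Ba normal-salt replicate 1 stood apart by other markers. Its adipocyte, mast cell and mesothelium sums were 1275, 21.3 and 16.5, against at most 638, 16.6 and 2.03 in any other library. Only 1 of 5 mesothelium markers was measured. This library was left out only on its own, which kept all 15 salt calls in S2Ba.

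Marker lists also differed in level between the diets, and their part in the results was not tested. All 5 fibroblast markers had negative log2 differences in S2Ba and in SS, with medians of -0.32 and -0.25 and 1 called in each, against a median of -0.02 and 1 called in S2Bb. The 6 measured endothelial markers were all negative in S2Ba and in SS, with medians of -0.19 and -0.27 and 0 and 2 called, and had a median of 0.02 with 1 called in S2Bb. The 4 measured skeletal muscle markers summed to 37.8 to 53.1 in S2Bb on high salt against 58.5 to 103 on normal salt without overlap, while the groups overlapped in S2Ba and SS. All 9 macrophage markers were measured. Their sum was 299 to 789.9 in S2Ba on high salt and 232 to 424 on normal salt. In S2Bb it was 281 to 797 on high salt and 239 to 331 on normal salt. In SS it was 219 to 409 on high salt and 298 to 379 on normal salt. Between the diets all 9 had positive log2 differences in S2Ba, with a median of 0.53 and 2 called higher. In S2Bb 8 were positive, with a median of 0.525 and 1 called higher. In SS 3 were positive and 6 negative, with a median of -0.03 and 1 called lower. The 6 cell cycle markers summed to 41.4 to 191 in S2Ba on high salt against 24.5 to 58.8 on normal salt, to 41.6 to 114 in S2Bb on high salt against 16.4 to 35.8 on normal salt, and to 48.2 to 70.3 in SS on high salt against 16 to 36.6 on normal salt. Of 7 neutrophil markers only 2 were measured, and their sum never passed 13.5 in any library. The 5 adipocyte markers, all measured, summed to 51.3 to 239.9 in S2Ba on high salt against 53.4 to 1275 on normal salt, to 123 to 359.6 in S2Bb on high salt against 105 to 386 on normal salt, and to 81 to 199 in SS on high salt against 85.4 to 638 on normal salt.

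On high salt the inhibitor gene Timp1 and the ADAMTS-like gene Adamtsl3 rose in both congenic strains, while every ADAMTS protease that passed the limma test of all 6 groups fell; Adamts12 was called higher in S2Bb by edgeR and DESeq2. In S2Ba 15 of 37 measured members passed the test at an adjusted p under 0.05 (limma, Benjamini-Hochberg over all 13475 genes tested), 3 higher and 12 lower on high salt; among all genes tested 15.2% passed, 8.12% higher and 7.04% lower. In S2Bb 13 of 37 passed, 3 higher and 10 lower, beside 22.1% of all genes, 10.7% higher and 11.4% lower. In SS 3 of 37 passed, 0 higher and 3 lower, beside 8.38% of all genes, 4.44% higher and 3.94% lower. The SS share of 8.11% was near that background, while the S2Ba share was 40.5% and the S2Bb share 35.1%. High-salt and normal-salt libraries did not overlap for 6 of 37 members in S2Ba, 6 in S2Bb and 2 in SS. Over all genes tested the shares without overlap were 5.31%, 10.4% and 5.99%, so the SS count was near its share. The median log2 difference of the members between high and normal salt was -0.22 in S2Ba, -0.34 in S2Bb and -0.26 in SS, against medians between -0.02 and 0.00 over all genes. Without the 3 cartilage- and macrophage-rich libraries the count was 15 in S2Ba, 8 in S2Bb and 8 in SS. Without SS normal-salt replicates 1 and 2 it was 15 in S2Ba, 13 in S2Bb and 2 in SS (Adamts4 lower and Timp1 higher), and with 8 surrogate variables in the model it was 1 in S2Ba (Adamts2), 7 in S2Bb and 3 in SS. The SS count was 1 without normal-salt replicate 5 or 6 or high-salt replicate 2, 4, 5 or 6, it was 2 without normal-salt replicate 1 or 4, and it was 5 without normal-salt replicate 3. The labels do not say that the libraries came from separate animals, so the p-values measure only the spread between these samples.

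**Figure D1:**
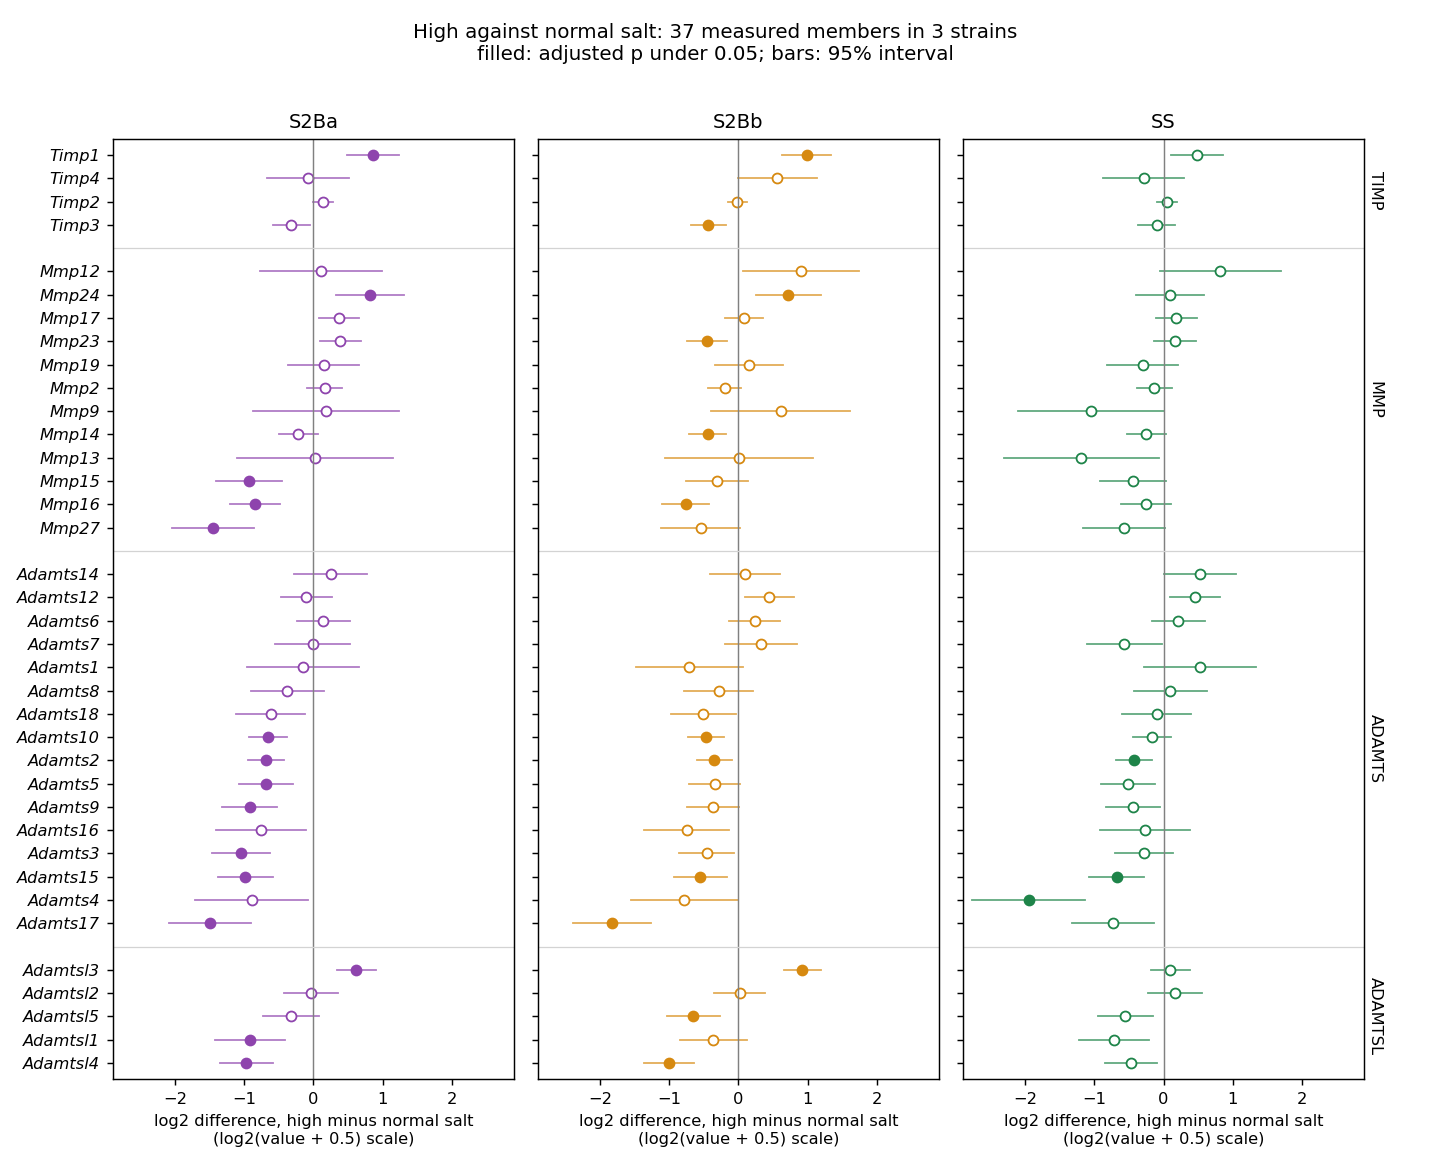
Log2 difference between high and normal salt for the 37 measured members, by family, in S2Ba (left), S2Bb (middle) and SS (right), on the log2(value + 0.5) scale. Points are fitted differences, bars 95% intervals, and filled points passed an adjusted p under 0.05. Timp1, Adamtsl3 and Mmp24 are the filled points right of 0 in both congenic strains, and no filled point lies right of 0 in SS.

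Of the 4 inhibitor genes, Timp1 rose in both congenic strains and Timp3 fell in S2Bb, and Timp2 and Timp4 passed in no strain by limma; Timp4 was called in S2Bb with the surrogate variables. Timp1, a secreted inhibitor of most MMPs, had values of 71.4, 102, 91.4, 52.7 and 71.7 in S2Ba on high salt, against 30.6 to 53.5 (median 41.7) on normal salt. Timp1 was 48.5 to 112 (median 57.4) in S2Bb on high salt and 28.7 to 33.3 (median 32.1) on normal salt. In SS it was 43.1, 40.1, 43.8, 51.4 and 48.6 on high salt and 22.6 to 46.2 (median 31.8) on normal salt. The groups did not overlap in S2Bb, 1 S2Ba high-salt library lay within the normal-salt range, and the SS groups overlapped. The log2 difference was 0.86 ± 0.18 (SE) in S2Ba (adjusted p = 0.00144), 0.99 ± 0.17 in S2Bb (adjusted p = 0.00011) and 0.48 ± 0.18 in SS (adjusted p = 0.0903). The highest Timp1 value, 112, was in the S2Bb library with the macrophage sum of 797, and the next highest, 102, was in an S2Ba library with a macrophage sum of 299. Without the 3 cartilage- and macrophage-rich libraries the difference was 0.80 (adjusted p = 0.00169) in S2Ba, 0.82 (adjusted p = 0.000479) in S2Bb and 0.52 (adjusted p = 0.0346) in SS, where Timp1 then passed the test. Without SS normal-salt replicates 1 and 2 the SS difference was 0.71 (adjusted p = 0.0211). With the surrogate variables the S2Ba difference was 0.245 and was not called (adjusted p = 0.115), while the S2Bb call held.

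The 250 bases before the RefSeq start of Timp1 (GRCr8, chrX:3771123-3771372, minus strand) are shown because this gene rose in both congenic strains. Capitals here and in the 4 windows printed further on mark matches on either strand to 4 motifs, none of which overlapped another. The GC box was searched as GGGCGG. The E-box was searched as CACGTG. The TATA box was searched as TATAAA. The AP-1 site was searched as TGANTCA. Of 27457 promoter windows of this length, 32.4% held GGGCGG, 5.79% CACGTG, 13.1% TATAAA and 6.36% TGANTCA. Of the 27 measured members with a promoter entry, 16 held GGGCGG, 2 CACGTG, 6 TATAAA and 2 TGANTCA. A match is a description of the letters and not a site, and Timp1 held 1 GGGCGG match.
Timp1: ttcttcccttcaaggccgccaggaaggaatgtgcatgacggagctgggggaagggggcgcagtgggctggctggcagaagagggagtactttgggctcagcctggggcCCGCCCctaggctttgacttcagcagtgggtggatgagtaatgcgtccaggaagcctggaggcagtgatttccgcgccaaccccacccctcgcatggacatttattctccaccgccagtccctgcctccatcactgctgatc

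Timp3, which binds the matrix and also inhibits ADAM17 and the aggrecan-cutting ADAMTS enzymes, fell in S2Bb. Its values there were 607 to 1094 (median 979) on high salt and 1082 to 1543 (median 1246) on normal salt, with 1 high-salt library inside the normal-salt range (log2 difference -0.44 ± 0.12, adjusted p = 0.0105). S2Ba libraries had 747, 791, 835, 837 and 862 on high salt against 860.1 to 1502 (median 930.4) on normal salt, where again 1 high-salt library reached the normal-salt range and the test was not passed (adjusted p = 0.0986). SS libraries had 946, 926, 912, 938 and 905 on high salt against 819.6 to 1180.0 (median 1019.9) on normal salt, which overlapped (adjusted p = 0.675). The S2Bb call was lost without the 3 cartilage- and macrophage-rich libraries, at -0.32 (adjusted p = 0.051).

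Timp2, an inhibitor that also takes part in the activation of pro-Mmp2 on the cell surface, passed in no strain. It had 579.8, 608, 608, 520.3 and 543 in S2Ba on high salt against 475 to 573 (median 514) on normal salt. S2Bb had 476 to 634 (median 528) on high salt against 510.3 to 601 (median 524) on normal salt. SS had 592, 557, 567, 586 and 512 on high salt against 489.5 to 579.9 (median 539.8) on normal salt. The groups overlapped in every strain, and the 95% intervals of the log2 difference between high and normal salt were 0.00 to 0.29 in S2Ba, -0.16 to 0.12 in S2Bb and -0.09 to 0.20 in SS (adjusted p = 0.161, 0.88 and 0.662 in S2Ba, S2Bb and SS).

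Timp4, an inhibitor known from heart and blood vessels, was scattered on high salt. Its values were 11.2, 28.7, 33.2, 11.2 and 11.9 in S2Ba on high salt and 15.2 to 21 (median 18.1) on normal salt. The 6 S2Bb high-salt libraries had 28, 11.2, 11.5, 29.7, 17.1 and 28.6, against 8.38 to 17.6 (median 12.8) on normal salt. SS libraries had 7.72, 28.7, 14.4, 15.7 and 10.5 on high salt and 13.7 to 20.2 (median 18.1) on normal salt. In S2Ba and SS the high-salt libraries spread beyond the normal-salt range on both sides, in S2Bb 3 of 6 high-salt libraries lay above every normal-salt library, and no difference passed the limma test (adjusted p = 0.894, 0.145 and 0.563 in S2Ba, S2Bb and SS).

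**Figure D2:**
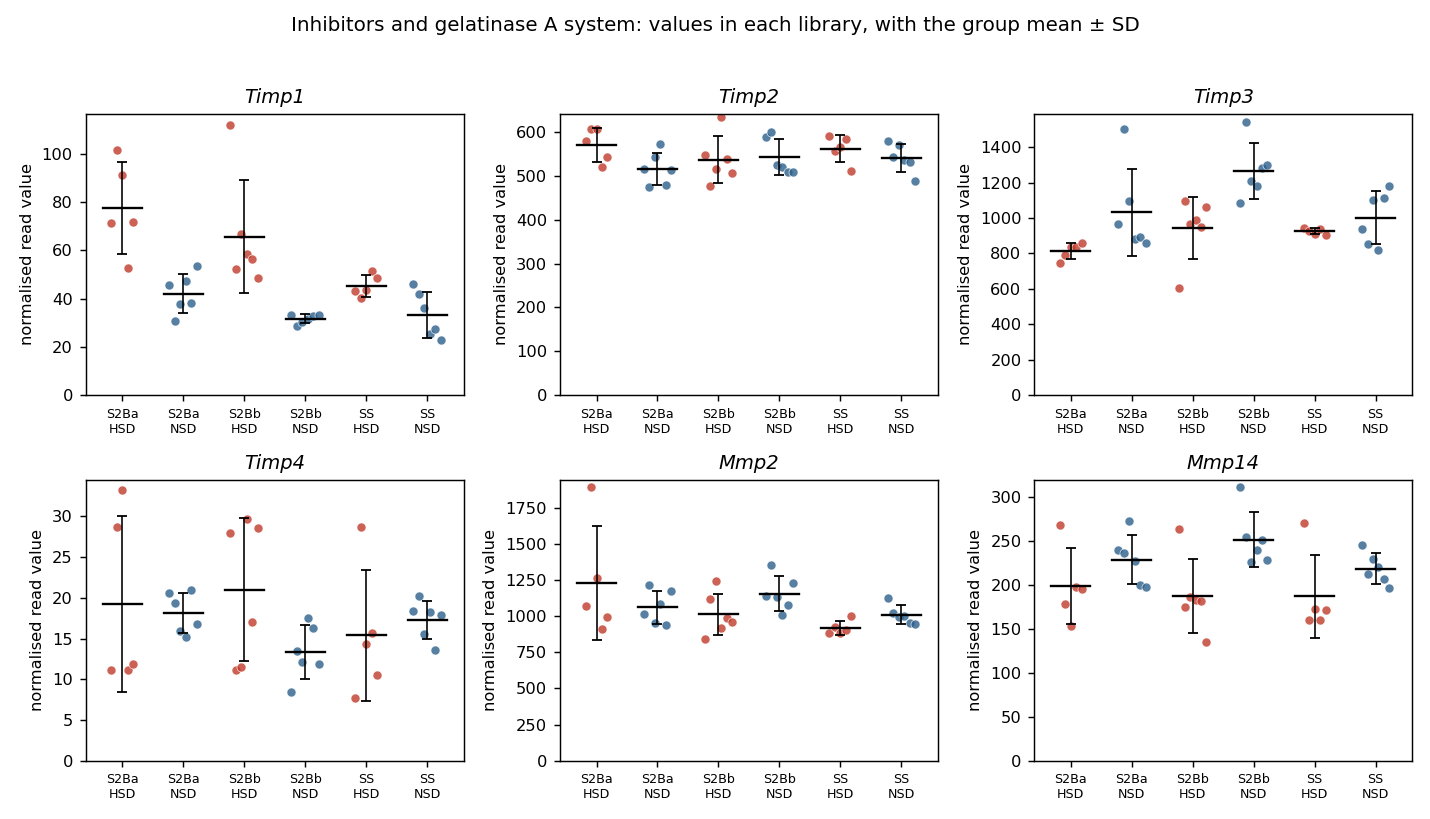
Normalised read value of the 4 TIMP genes, Mmp2 and Mmp14 in every library (points), with the mean (line) and SD (bar) of each group; high salt in red and normal salt in blue. Timp1 lies at 48.5 to 112 in S2Bb on high salt against 28.7 to 33.3 on normal salt, while the Timp2 groups overlap in every strain.

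Among the MMPs, 4 of 12 measured genes passed in S2Ba, 4 of 12 in S2Bb and 0 of 12 in SS by limma, beside 15.2%, 22.1% and 8.38% of all genes. The 12 include Mmp9 and Mmp13, which count as measured through 1 library. Of the SS genes 1 had an unadjusted p under 0.05; edgeR on the recovered reads called 2 (Mmp9 and Mmp13) and DESeq2 1 (Mmp9), and both rest on SS normal-salt replicate 3, as described below. Mmp2 and Mmp14 form a gelatinase system at the cell surface. Mmp2, gelatinase A, had 1070.3, 1893, 1266, 914 and 997 in S2Ba on high salt against 936 to 1217 (median 1049) on normal salt. S2Bb had 843 to 1242 (median 975) on high salt against 1009.9 to 1354 (median 1135) on normal salt, and SS had 883, 924, 886, 908 and 1000.3 against 949 to 1128 (median 1001). S2Ba high-salt replicate 3 was the highest of all libraries, and the groups overlapped in each strain. The log2 differences were 0.16 ± 0.12 in S2Ba, -0.20 ± 0.12 in S2Bb and -0.13 ± 0.12 in SS, and none passed (adjusted p = 0.39, 0.234 and 0.527 in S2Ba, S2Bb and SS).

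Mmp14, the membrane-anchored protease that activates pro-Mmp2, fell in S2Bb. Values there were 135 to 264 (median 182) on high salt and 227 to 311 (median 245) on normal salt (log2 difference -0.44 ± 0.13, adjusted p = 0.0133). In S2Bb 5 of 6 high-salt libraries lay below every normal-salt library, and replicate 1 was the exception at 264. S2Ba had 268, 179, 153, 198 and 196 on high salt against 197 to 273 (median 231) on normal salt, and SS had 271, 161, 173, 160.3 and 172 against 196 to 245 (median 217). Neither passed (adjusted p = 0.293 in S2Ba and 0.258 in SS). With 2 components of the clock genes in the model the S2Bb difference was -0.25 (adjusted p = 0.154).

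Mmp16, another membrane-anchored MMP, fell in both congenic strains. S2Ba had 23.5, 17.3, 15.7, 33.4 and 25.7 on high salt against 32.5 to 50.1 (median 41.6) on normal salt, and S2Bb had 13.6 to 36.8 (median 27.2) against 39.1 to 55.2 (median 43). The S2Bb groups did not overlap, and 1 S2Ba high-salt library, at 33.4, lay inside the normal-salt range. The differences were -0.84 ± 0.18 in S2Ba (adjusted p = 0.00149) and -0.76 ± 0.17 in S2Bb (adjusted p = 0.00136). In SS, values of 35.5, 35.8, 30.1, 33.7 and 36.7 on high salt overlapped 35.2 to 48.3 (median 40.1) on normal salt (adjusted p = 0.372).

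Mmp24, a membrane-anchored MMP known mainly from the nervous system, rose in both congenic strains at a low level of 0.373 to 2.91 over all libraries. S2Ba had 2.35, 2.1, 2.25, 1.48 and 2.02 on high salt and 0.485 to 1.59 (median 0.9) on normal salt. S2Bb had 1.47 to 2.91 (median 2.01) on high salt and 0.373 to 1.77 (median 1.15) on normal salt. SS had 1.57, 0.911, 1.06, 1.24 and 1.36 on high salt and 0.455 to 2.39 (median 1.22) on normal salt. The groups overlapped in all 3 strains; the differences were 0.81 ± 0.24 in S2Ba (adjusted p = 0.0197), 0.72 ± 0.23 in S2Bb (adjusted p = 0.0217) and 0.10 ± 0.24 in SS (adjusted p = 0.836). The S2Ba adjusted p was 0.0578 without normal-salt replicate 2 and 0.0504 without high-salt replicate 1. The S2Bb adjusted p was 0.0805 and 0.0592 without normal-salt replicate 2 and 5, and 0.055 without high-salt replicate 4. It was 0.0528 without the 3 cartilage- and macrophage-rich libraries. In RefSeq the span of the gene Mmp24os overlaps that of Mmp24. Exons were not compared and use of strand is not stated, so whether their reads were mixed is not known.

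Mmp15 and Mmp27 fell in S2Ba. Mmp15, also membrane-anchored, was 2.27 to 4.45 on high salt against 4.32 to 10.5 on normal salt (log2 difference -0.94 ± 0.23, adjusted p = 0.00613). Mmp27, which lies in the MMP gene cluster on chromosome 8, was 0.167 to 1.83 against 1.26 to 3.76 (-1.45 ± 0.29, adjusted p = 0.000963). Means were also lower on high salt in the other strains, without passing by limma. Mmp15 averaged 5.73 against 6.90 in S2Bb and 5.57 against 7.46 in SS. Mmp27 averaged 1.77 against 2.72 in S2Bb and 1.70 against 2.81 in SS. Mmp15 was called lower in S2Bb with the clock components, and Mmp27 in SS with only the groups compared. Mmp23 fell in S2Bb, where it was 45.3 to 69.4 on high salt against 64.7 to 99.3 on normal salt (-0.46 ± 0.14, adjusted p = 0.0182); its adjusted p was 0.0547 without high-salt replicate 1 and 0.0584 without normal-salt replicate 1, and 0.0614 without the 3 cartilage- and macrophage-rich libraries. In S2Ba Mmp23 was 50.1 to 97.1 on high salt against 46.1 to 73.4 on normal salt (0.39 ± 0.15, adjusted p = 0.0708, called higher by DESeq2), and in SS it was 49.8 to 81.8 against 50.1 to 68.4 (0.17 ± 0.15, adjusted p = 0.513). Mmp12, the macrophage elastase, Mmp17 and Mmp19 passed in no strain by limma, though Mmp12 was called higher in S2Bb with only the groups compared. Mmp12 was 3.89 to 12.3 in S2Ba on high salt against 2.23 to 29.9 on normal salt, 3.97 to 22 in S2Bb against 3.36 to 7.09, and 4.48 to 9.76 in SS against 1.91 to 7.3. The Mmp12 log2 differences were 0.11 ± 0.43 in S2Ba, 0.91 ± 0.41 in S2Bb and 0.82 ± 0.43 in SS, with adjusted p of 0.897, 0.11 and 0.233 in that order.

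Mmp13, collagenase 3, and Mmp9, gelatinase B, were counted as measured through 1 library. SS normal-salt replicate 3 held 365 Mmp13 reads, and the other 33 libraries held 20 together. For Mmp9 it held 251 reads, and the others 145. Without that library the mean value was 0.0559 for Mmp13 and 0.382 for Mmp9, both under the minimum of 0.5. In the same library Col2a1 stood at 191 against at most 0.828 elsewhere, Col10a1, a collagen of hypertrophic cartilage, at 25.2 against at most 0.611, and Acp5, the osteoclast acid phosphatase, at 46 against at most 13.2. The part of such RNA in the Mmp13 and Mmp9 values was not tested.

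Of the ADAMTS proteases, 7 of 16 measured genes fell in S2Ba, 4 of 16 in S2Bb and 3 of 16 in SS by limma, and 0 rose; over all genes 7.04%, 11.4% and 3.94% were lower in S2Ba, S2Bb and SS. Adamts12 was called higher on high salt in S2Bb by edgeR, by DESeq2 and with the clock components, and in SS with only the groups compared. Among the enzymes that cut versican and aggrecan, Adamts15 fell in all 3 strains. Adamts15 had 109, 67.5, 53.1, 100.3 and 82 in S2Ba on high salt against 129 to 189 (median 158) on normal salt. In S2Bb it had 42.1 to 122 (median 108) against 112 to 164 (median 143), and in SS 163, 98.5, 99.3, 111 and 119 against 144 to 210.1 (median 194). The S2Ba groups did not overlap; in SS, high-salt replicate 1 alone reached the normal-salt range; and S2Bb high-salt replicate 1, at 42.1, was the lowest of all libraries. The differences were -0.98 ± 0.20 in S2Ba (adjusted p = 0.000881), -0.55 ± 0.19 in S2Bb (adjusted p = 0.0308) and -0.68 ± 0.20 in SS (adjusted p = 0.0303). Leaving out each library in turn ended the S2Bb call in 4 of 12 cases (adjusted p = 0.0218 to 0.126), with the largest p and a difference of -0.32 without high-salt replicate 1 and the others without normal-salt replicate 1, 4 or 5; without the 3 cartilage- and macrophage-rich libraries the S2Bb adjusted p was 0.0856. It ended the SS call in 7 of 11 cases (adjusted p = 0.0129 to 0.0806), namely without normal-salt replicate 1, 5 or 6 or high-salt replicate 2, 4, 5 or 6; with the clock components the SS difference was -0.47 (adjusted p = 0.284), and without SS normal-salt replicates 1 and 2 -0.62 (adjusted p = 0.0723).

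Adamts9, a versican-cutting protease, fell in S2Ba. S2Ba libraries had 136, 104, 105, 114 and 130.2 on high salt and 190.5 to 282 (median 218) on normal salt, with no overlap (log2 difference -0.92 ± 0.19, adjusted p = 0.00138). S2Bb had 87.3 to 247 (median 206) against 171 to 296 (median 234), and SS had 194, 283, 187, 172 and 173 against 203 to 376 (median 269.9). Both pairs overlapped and neither passed (log2 difference -0.37 ± 0.18, adjusted p = 0.15 in S2Bb and -0.44 ± 0.19, adjusted p = 0.148 in SS). With the clock components the S2Bb difference was -0.73 (adjusted p = 0.00427), and without S2Bb high-salt replicate 1 it was -0.17 (adjusted p = 0.498).

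Adamts1, a versican- and aggrecan-cutting protease, varied widely within groups. It had 211, 237, 407, 473 and 377 in S2Ba on high salt against 185 to 521 (median 403) on normal salt. In S2Bb it had 208 to 1060.0 (median 382) against 359.8 to 1328 (median 768), and in SS 421, 643, 459.7, 788 and 323 against 154 to 768 (median 334). Every pair of diet groups overlapped, and the 95% intervals of the log2 difference were -0.96 to 0.66 in S2Ba, -1.49 to 0.06 in S2Bb and -0.29 to 1.34 in SS. With the clock components in the model the S2Bb difference was -1.23 (adjusted p = 0.0313).

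Adamts5, an aggrecan-cutting protease encoded next to Adamts1, fell in S2Ba, where it was 42.4, 21.4, 23.1, 47.9 and 28.3 on high salt and 37.4 to 73.6 (median 47.8) on normal salt (log2 difference -0.68 ± 0.19, adjusted p = 0.014). It was 32.3 to 40.7 in S2Bb on high salt against 41.5 to 55.1 on normal salt and 24.9 to 42 in SS against 32.5 to 67.8, and did not pass there (adjusted p = 0.176 in S2Bb and 0.0886 in SS). The S2Bb groups did not overlap. Adamts5 was called lower in S2Bb with only the groups compared, and in SS without the 3 cartilage- and macrophage-rich libraries. The S2Ba adjusted p was 0.0629 without high-salt replicate 3 and 0.0558 without high-salt replicate 4. It was 0.0687 with only the groups compared and 0.0608 with the surrogate variables. Adamts8, another member of this branch, ranged from 109.9 to 247 in S2Ba, 52.7 to 219 in S2Bb and 205 to 354 in SS on high salt, against 181 to 294, 163 to 245 and 194 to 330.3 on normal salt in the same strains, and passed in none (adjusted p = 0.343, 0.437 and 0.848 in S2Ba, S2Bb and SS).

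Adamts4, an aggrecan-cutting protease, had the largest fall of any member in SS; it is given by library, a choice made after its values were seen. SS libraries had 4.09, 0.759, 0.163, 0.578 and 1.02 on high salt and 3.21 to 6.73 (median 5.72) on normal salt (log2 difference -1.95 ± 0.40, adjusted p = 0.00391). High-salt replicate 1 lay within the normal-salt range and the other 4 lay below it. The clock gene Arntl, in the same order of SS high-salt libraries, was 74.3, 2.43, 4, 6.77 and 11.4, and the clock output gene Dbp was 5.28, 196, 210.1, 150.2 and 96.5. Replicate 1 was thus the high-salt library with normal-salt levels of all 3 genes, since Arntl was 60.1 to 87.2 (median 79.3) and Dbp 5.1 to 13 (median 7.97) in SS on normal salt. In S2Bb the 6 high-salt libraries had Adamts4 values of 3.41, 3.43, 3.71, 0.971, 0.261 and 1.21, beside Arntl values of 82.9, 79.9, 80.2, 20.6, 4.44 and 2.83. The 3 S2Bb libraries with high Arntl were also those with Adamts4 above 3. In S2Ba on high salt Adamts4 was 3.08, 1.38, 0.5, 2.88 and 2.7 and Arntl 50.4, 40.3, 17.4, 75.4 and 76.8, with both lowest in the same library. The highest Adamts4 value there, 3.08, was not in a library with the highest Arntl. Normal-salt Adamts4 values were 2.36 to 6.57 (median 3.5) in S2Ba and 2.5 to 4.55 (median 3.31) in S2Bb. The differences did not pass in S2Ba (-0.89 ± 0.40, adjusted p = 0.13) or S2Bb (-0.78 ± 0.38, adjusted p = 0.143). With the clock components as covariates the SS difference was -0.84 (adjusted p = 0.183). Every SS high-salt library but replicate 1 had Arntl below the normal-salt range, so the parts of diet and clock cannot be told apart there. The part of the clock in the Adamts4 values was not tested.

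**Figure D3:**
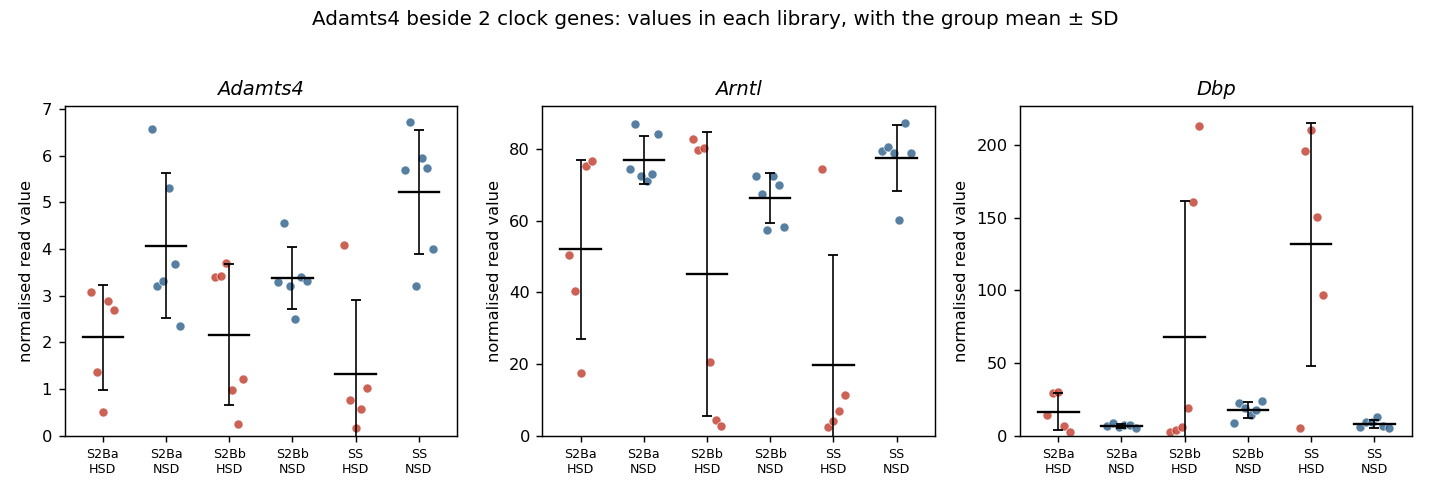
Normalised read values of Adamts4 and of the clock genes Arntl and Dbp in every library (points), with the mean (line) and SD (bar) of each group; high salt in red and normal salt in blue. The SS high-salt library with Adamts4 at 4.09 is the one with Arntl at 74.3 and Dbp at 5.28, and the other 4 have Arntl at 2.43 to 11.4.

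The 250 bases before the RefSeq start of Adamts4 (GRCr8, chr13:86202761-86203010, plus strand) are shown beside these values. They held none of the 4 motifs, which says only that these letters are not in this window.
Adamts4: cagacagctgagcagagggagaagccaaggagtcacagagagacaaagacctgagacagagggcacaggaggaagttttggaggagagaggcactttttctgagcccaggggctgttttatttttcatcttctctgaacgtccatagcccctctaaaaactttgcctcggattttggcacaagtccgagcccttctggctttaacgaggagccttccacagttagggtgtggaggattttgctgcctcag

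Of the procollagen propeptidases, Adamts2 fell in all 3 strains. It had 203, 121, 128, 170.3 and 156 in S2Ba on high salt against 178 to 362 (median 240.3) on normal salt. S2Bb had 176 to 222 (median 193) against 204 to 299.6 (median 252), and SS had 239, 186, 167, 188 and 195 against 237 to 299 (median 260.1). The groups overlapped in each strain, by 1 high-salt library in S2Ba and in SS. The differences were -0.69 ± 0.13 in S2Ba (adjusted p = 0.000542), -0.35 ± 0.12 in S2Bb (adjusted p = 0.0377) and -0.43 ± 0.13 in SS (adjusted p = 0.0371). The S2Ba call held under all 10 other settings and without each library in turn. Leaving out each library in turn ended the S2Bb call in 9 of 12 cases (adjusted p = 0.0208 to 0.0972), the exceptions being normal-salt replicate 2 and high-salt replicates 5 and 6, and the SS call in 8 of 11 cases (adjusted p = 0.0177 to 0.105), the exceptions being normal-salt replicates 2 and 3 and high-salt replicate 1. Without the 3 cartilage- and macrophage-rich libraries the S2Bb adjusted p was 0.0841, and without SS normal-salt replicates 1 and 2 the SS adjusted p was 0.0553. The S2Bb and SS calls were also lost with the clock components (adjusted p = 0.117 and 0.195), with the surrogate variables and with no filter on low values. By edgeR the SS call was lost as well (adjusted p = 0.0561). Adamts3 fell in S2Ba, with values of 1.78 to 2.97 on high salt against 3.34 to 7.07 on normal salt (-1.04 ± 0.21, adjusted p = 0.000789). Its means were also lower on high salt in S2Bb (3.43 against 4.98) and SS (3.90 against 4.82), without passing by limma. It was called lower in S2Bb with the clock components. Adamts14 was 4.19 to 9.01, 4.04 to 8.58 and 6.83 to 15.2 on high salt in S2Ba, S2Bb and SS, against 2.31 to 11.7, 4.25 to 6.51 and 3.6 to 8.65 on normal salt, and passed in none.

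Adamts17 and Adamts10, relatives whose human mutations cause Weill-Marchesani syndrome or a similar disorder of fibrillin-rich tissue, both fell in the congenic strains. Adamts17 had 2.11, 0.405, 0.333, 1.22 and 1.6 in S2Ba on high salt against 2.31 to 8.62 (median 3.35) on normal salt. In S2Bb it had 0.416 to 2.44 (median 1.84) against 5.8 to 7.98 (median 6.32), and in SS 3.86, 3.19, 2.12, 2.56 and 2.22 against 3.91 to 7.3 (median 4.53). High-salt and normal-salt libraries did not overlap in any of the 3 strains. The log2 difference was -1.49 ± 0.29 in S2Ba (adjusted p = 0.000743) and -1.83 ± 0.28 in S2Bb (adjusted p = 1.97e-05), the largest fall of any member in each. In SS it was -0.73 ± 0.29 and did not pass over all genes (adjusted p = 0.111), though it did with only the SS groups in the model (adjusted p = 0.0218). The level was low, 1479 reads in all libraries together, so the pseudocount makes these falls smaller than the ratio of the values.

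Adamts17 is shown with its 250 upstream bases (GRCr8, chr1:129855812-129856061, plus strand) because it had that largest fall; the window held 1 CACGTG match.
Adamts17: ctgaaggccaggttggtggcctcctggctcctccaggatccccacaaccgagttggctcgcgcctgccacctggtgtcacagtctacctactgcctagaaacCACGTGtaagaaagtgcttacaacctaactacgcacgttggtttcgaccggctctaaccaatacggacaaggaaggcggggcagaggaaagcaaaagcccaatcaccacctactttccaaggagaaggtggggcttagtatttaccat

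Adamts10 had 137, 114, 132, 182 and 129 in S2Ba on high salt against 193 to 256 (median 206) on normal salt, with no overlap. S2Bb had 124 to 186 (median 164) against 179 to 264 (median 229), and SS had 203, 210.3, 187, 178 and 153 against 140.4 to 253 (median 218), and both pairs overlapped. The log2 difference was -0.66 ± 0.13 in S2Ba (adjusted p = 0.000955) and -0.47 ± 0.13 in S2Bb (adjusted p = 0.00688); in SS it was -0.17 ± 0.13 (adjusted p = 0.448). Adamts6, the closest relative of Adamts10, was 36.6 to 46.8 in S2Ba, 39.4 to 55.5 in S2Bb and 38.9 to 50.9 in SS on high salt, against 34 to 49.6, 27.9 to 86.5 and 31.2 to 55.2 on normal salt, and passed in no strain (adjusted p = 0.66, 0.372 and 0.5 in S2Ba, S2Bb and SS). Adamts7 and Adamts12, which cut cartilage oligomeric matrix protein, were called in no strain by the limma test; Adamts12 had a log2 difference of 0.46 ± 0.18 in SS (adjusted p = 0.106) and 0.45 ± 0.17 in S2Bb (adjusted p = 0.0561), against -0.10 ± 0.18 in S2Ba. Other settings did call them, Adamts12 as given above and Adamts7 as lower in SS without the 3 cartilage- and macrophage-rich libraries. Adamts16 and Adamts18 were just inside the limit of measurement, with means of 0.789 and 0.51, and passed in none by limma; Adamts16 was called lower in S2Bb by edgeR, DESeq2 and with only the groups compared, and Adamts18 lower in S2Ba by DESeq2. Just outside it were Mmp3 at 0.402 and Adamts19 at 0.217.

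**Figure D4:**
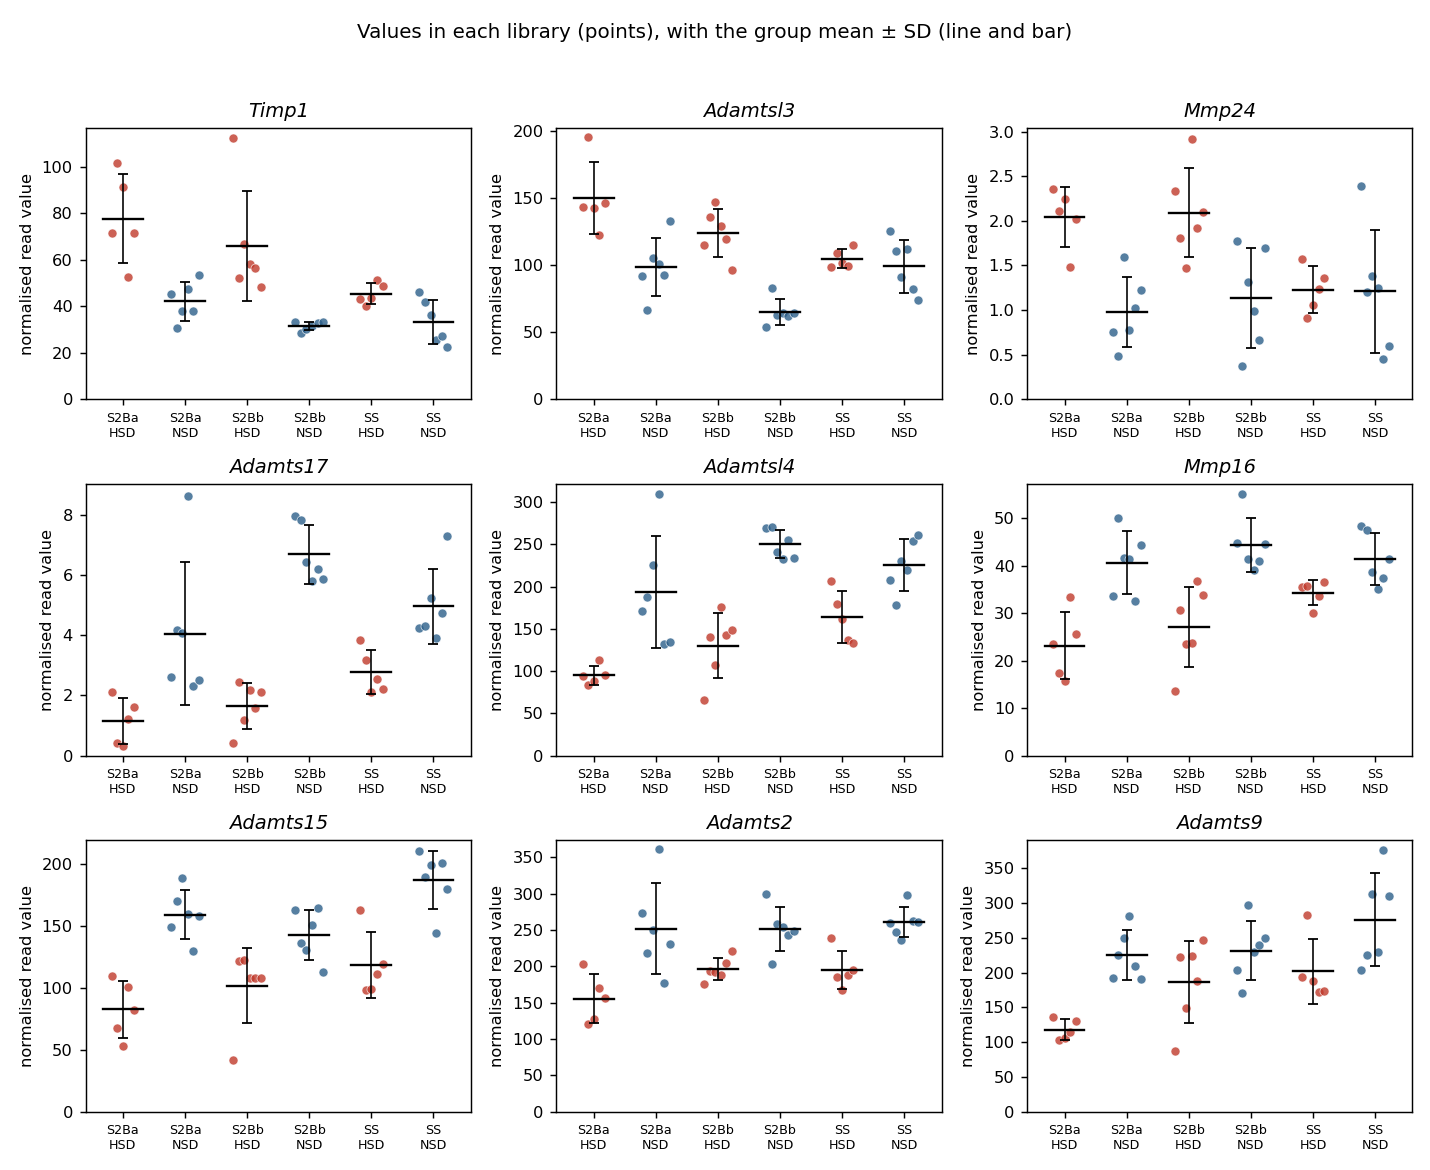
Normalised read value of 9 members in every library (points), with the mean (line) and SD (bar) of each group; high salt in red and normal salt in blue. Adamts17 lies lower on high salt in every strain without overlap, Timp1 and Adamtsl3 lie higher in S2Bb without overlap, and Adamtsl4 lies lower in both congenic strains without overlap.

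The ADAMTS-like genes moved in opposite directions. Adamtsl3, which encodes a secreted protein without protease activity, had 144, 195, 142, 123 and 147 in S2Ba on high salt and 66.6 to 133 (median 96.6) on normal salt. S2Bb had 96.6 to 147 (median 124) on high salt and 54.1 to 82.7 (median 63.3) on normal salt. SS had 98.7, 109, 101, 99.1 and 115 on high salt and 74.3 to 125 (median 101) on normal salt. The groups did not overlap in S2Bb, overlapped by 1 normal-salt library in S2Ba and lay together in SS. Adamtsl3 rose, with a log2 difference of 0.62 ± 0.14 in S2Ba (adjusted p = 0.00255) and 0.92 ± 0.13 in S2Bb (adjusted p = 1.03e-05), while the SS difference was 0.10 ± 0.14 (adjusted p = 0.7). The S2Bb call held under all 10 other settings and without each library in turn.

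Adamtsl3 is shown with its 250 upstream bases (GRCr8, chr1:145697754-145698003, plus strand) as the ADAMTS-like gene that rose; the window held 3 GGGCGG matches.
Adamtsl3: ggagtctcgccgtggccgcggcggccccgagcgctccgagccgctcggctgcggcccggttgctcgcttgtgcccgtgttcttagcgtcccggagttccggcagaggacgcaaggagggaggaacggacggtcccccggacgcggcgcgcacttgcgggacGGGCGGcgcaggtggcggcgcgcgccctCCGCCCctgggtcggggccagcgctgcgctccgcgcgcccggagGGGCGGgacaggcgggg

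Adamtsl4, a fibrillin-binding protein whose human mutations displace the lens, fell in both congenic strains. S2Ba had 93.6, 83.6, 88.8, 113 and 95.2 on high salt and 132 to 309 (median 179) on normal salt. S2Bb had 65.7 to 176 (median 142) on high salt and 233 to 270.4 (median 248) on normal salt. SS had 207, 179.6, 162, 137 and 133 on high salt and 178 to 261 (median 225) on normal salt. The congenic groups did not overlap and the SS groups did; the differences were -0.97 ± 0.19 in S2Ba (adjusted p = 0.000638), -1.0 ± 0.18 in S2Bb (adjusted p = 0.000114) and -0.47 ± 0.19 in SS (adjusted p = 0.109). Adamtsl4 is one of 3 members on chromosome 2 in RefSeq, with Adamts6 and Adamts12; whether any lies in a BN segment is not given in the sources used here.

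Its 250 upstream bases (GRCr8, chr2:185935797-185936046, minus strand) are shown as the chromosome 2 member that fell; the window held 2 GGGCGG matches.
Adamtsl4: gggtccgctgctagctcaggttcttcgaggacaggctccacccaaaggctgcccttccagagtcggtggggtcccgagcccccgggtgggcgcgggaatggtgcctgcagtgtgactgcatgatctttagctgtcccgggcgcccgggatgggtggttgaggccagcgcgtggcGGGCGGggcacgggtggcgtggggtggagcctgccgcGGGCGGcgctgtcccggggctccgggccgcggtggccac

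Adamtsl1 fell in S2Ba, with 8.82 to 18.2 on high salt against 14.7 to 35.4 on normal salt (-0.91 ± 0.25, adjusted p = 0.0113). In SS Adamtsl1 was 13.7 to 22.3 against 17.3 to 40.2 (-0.72 ± 0.25, adjusted p = 0.0646), where it was called by DESeq2, with only the groups compared and without the 3 cartilage- and macrophage-rich libraries. In S2Bb it was 9.32 to 24.9 against 12.6 to 26 (-0.36 ± 0.24, adjusted p = 0.288). Adamtsl5 fell in S2Bb, with 6.74 to 23.3 against 21.2 to 40.9 (-0.65 ± 0.19, adjusted p = 0.0109), a difference that turned to 0.03 with the surrogate variables. In SS Adamtsl5 was 13.6 to 18.4 on high salt against 19.6 to 28.1 on normal salt without overlap (-0.55 ± 0.20, adjusted p = 0.0738), and it was called there with only the groups compared and without the 3 cartilage- and macrophage-rich libraries. In S2Ba it was 15.2 to 18.8 against 17 to 30.0 (-0.32 ± 0.20, adjusted p = 0.279). Adamtsl2, known from human geleophysic dysplasia, passed in no strain; its 95% intervals of the log2 difference were -0.42 to 0.36 in S2Ba, -0.35 to 0.39 in S2Bb and -0.23 to 0.55 in SS.

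Differences between strains were few. On normal salt S2Ba against SS gave 0 of 37 members by limma, beside 0.267% of all genes; 2 members had an unadjusted p under 0.05, edgeR called 1 (Mmp13, which rests on SS normal-salt replicate 3) and DESeq2 0. S2Bb against SS on normal salt gave 1 of 37, beside 1.44% of all genes. That member was Adamtsl3, lower in S2Bb at 54.1 to 82.7 (median 63.3) against 74.3 to 125 (median 101) in SS, with overlap (log2 difference -0.59 ± 0.13, adjusted p = 0.0154). It was lost without 2 single libraries: without SS normal-salt replicate 1 the Adamtsl3 adjusted p was 0.0622, and without replicate 4 it was 0.0516. Without SS normal-salt replicates 1 and 2 together the difference was -0.46 (adjusted p = 0.127). Adamts1 was higher in S2Bb than in SS by a log2 difference of 1.01 ± 0.38 and Timp3 by 0.34 ± 0.12, and neither passed (adjusted p = 0.199 for Adamts1 and 0.179 for Timp3).

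On high salt S2Ba differed from SS in 4 of 37 members, 1 higher and 3 lower, beside 1.73% of all genes, 0.757% higher and 0.972% lower. Timp1 was higher, at 71.4, 102, 91.4, 52.7 and 71.7 in S2Ba against 43.1, 40.1, 43.8, 51.4 and 48.6 in SS (0.74 ± 0.19, adjusted p = 0.0381). Adamtsl4 was lower, at 93.6, 83.6, 88.8, 113 and 95.2 in S2Ba against 207, 179.6, 162, 137 and 133 in SS (-0.77 ± 0.19, adjusted p = 0.0348). Neither pair of groups overlapped, and the same was true of Adamts9 (-0.76 ± 0.20, adjusted p = 0.046) and Adamts17 (-1.12 ± 0.30, adjusted p = 0.049), both lower in S2Ba. Adamtsl3 and Timp3 also did not overlap between these groups but did not pass. In all, 6 of 37 members did not overlap, beside 5.35% of all genes tested. These 4 calls lay close to the threshold: leaving out S2Ba high-salt replicate 3, 4 or 6, or SS high-salt replicate 1, 2 or 4, left 0, leaving out S2Ba replicate 1 or SS replicate 5 or 6 left 1, and leaving out S2Ba replicate 5 gave 8. By member, the Adamts9 call was lost in 10 of 10 cases (adjusted p = 0.0509 to 0.148). The Timp1 call was lost in 9 of 10, the Adamts17 call in 8 and the Adamtsl4 call in 7. Clock gene levels differed between these 2 groups, since 4 of 5 SS high-salt libraries had Arntl at or below 11.4 against a lowest S2Ba value of 17.4, and the part of the clock in these results was not tested. With the clock components in the model 0 members passed, with log2 differences of 0.60 for Timp1, -0.98 for Adamts17, -0.43 for Adamts9 and -0.52 for Adamtsl4. Without the 3 cartilage- and macrophage-rich libraries the Adamts17 adjusted p was 0.0942, and without SS normal-salt replicates 1 and 2 it was 0.0562. S2Bb against SS on high salt gave 0 of 37 by limma, edgeR and DESeq2, beside 0.267% of all genes by limma; 7 members had an unadjusted p under 0.05.

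**Figure D5:**
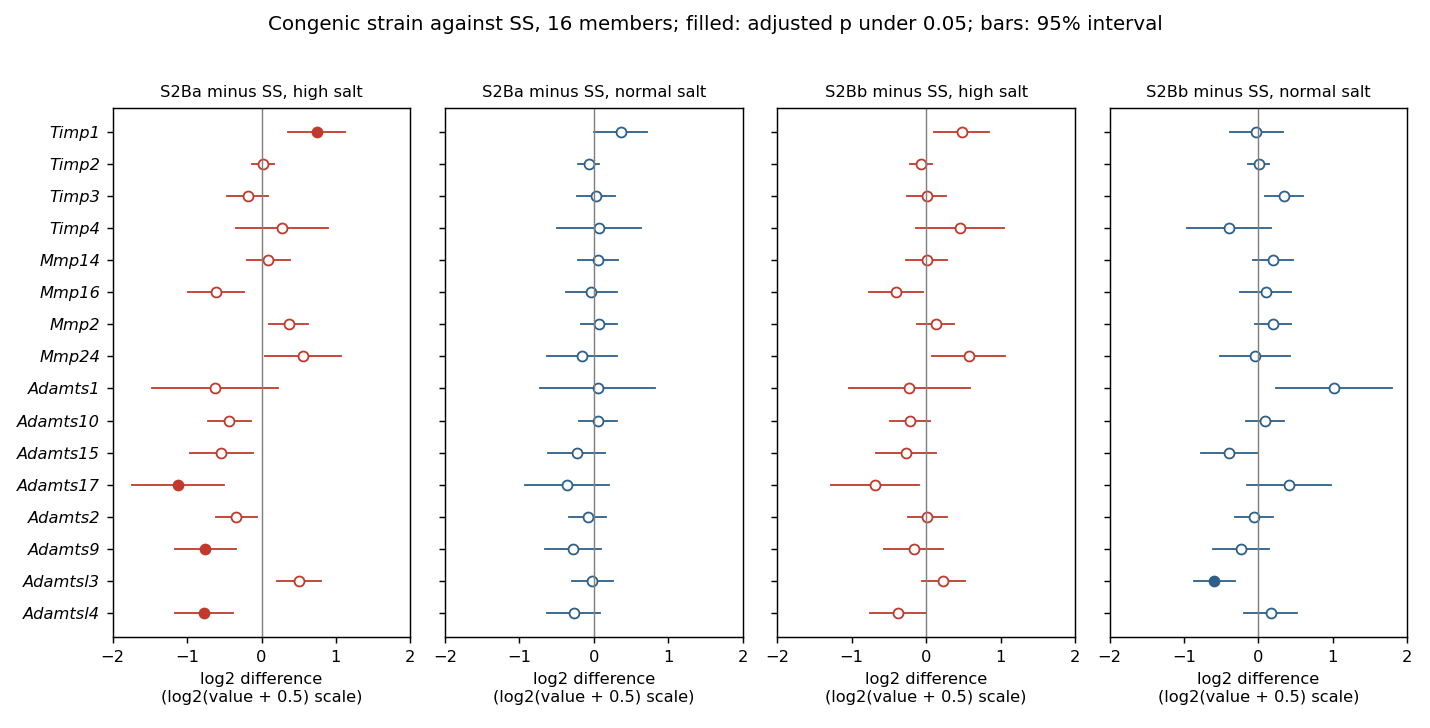
Log2 difference between each congenic strain and SS on high salt (red) and on normal salt (blue) for 16 members, on the log2(value + 0.5) scale. Points are fitted differences, bars 95% intervals, and filled points passed an adjusted p under 0.05: 4 in S2Ba against SS on high salt and Adamtsl3 in S2Bb against SS on normal salt.

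The salt response of each congenic strain was compared with that of SS; the 2 congenic responses were not compared with each other. The test of the S2Ba response minus the SS response gave 0 of 37 by limma, edgeR and DESeq2, beside 0% of all genes by limma, with 7 members at an unadjusted p under 0.05. The S2Bb response minus the SS response gave 0 of 37 by limma and edgeR, beside 0.171% of all genes by limma, with 10 members at an unadjusted p under 0.05, and 2 by DESeq2 (Adamtsl3 and Mmp9). SS normal-salt replicate 3 held 251 Mmp9 reads against 145 in the other 33 libraries together, and Mmp9 counts as measured through that library alone. By limma Adamtsl3 came closest, with a difference in response of 0.82 ± 0.19 (adjusted p = 0.0606). It was called with only the groups compared, and the count was 1 without S2Bb normal-salt replicate 2, S2Bb high-salt replicate 6, or SS normal-salt replicate 3 or 6. For Timp1 the difference in response was 0.38 ± 0.26 between S2Ba and SS (adjusted p = 0.659) and 0.50 ± 0.25 between S2Bb and SS (adjusted p = 0.41), with 95% intervals of -0.15 to 0.90 and -0.01 to 1.02. For Adamts17 it was -0.76 ± 0.41 in S2Ba (adjusted p = 0.568) and -1.10 ± 0.40 in S2Bb (adjusted p = 0.24). The strain contrasts share the SS libraries, so their values are not independent of each other.

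Genes that activate, bind or hold these proteases were taken from a list of 23, of which 20 were measured. On high salt 6 rose and 0 fell in S2Ba, 6 rose and 3 fell in S2Bb, and 3 rose and 0 fell in SS. These are 30%, 45% and 15% of the list, beside 15.2%, 22.1% and 8.38% of all genes. With each library left out in turn the count was 5 to 7 in S2Ba, 7 to 9 in S2Bb and 3 to 4 in SS. Plat and Plaur, the tissue plasminogen activator and the urokinase receptor, rose in all 3 strains: Plat by 0.96 in S2Ba (adjusted p = 0.000171), 0.94 in S2Bb (adjusted p = 4.85e-05) and 0.81 in SS (adjusted p = 0.00334), and Plaur by 1.16, 0.80 and 0.74 in S2Ba, S2Bb and SS. Plat averaged 165 ± 30.0 in S2Ba on high salt and 84.6 ± 16.3 on normal salt (SD, n = 5 and 6). Thbs1, which encodes thrombospondin 1, rose in S2Ba by 2.63 (adjusted p = 0.00265). Thbs2, a thrombospondin that takes part in the clearance of Mmp2, had a log2 difference of -0.63 ± 0.10 in S2Bb (adjusted p = 2.58e-05).

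In the ADAM family, the membrane-bound relatives, 10 of 11 listed genes were measured; 0 rose and 1 fell in S2Ba, 1 rose and 4 fell in S2Bb, and 0 rose and 1 fell in SS. The shares of 10% in S2Ba and in SS were below or near the 15.2% and 8.38% of all genes, and in S2Bb the share was 50% beside 22.1%. With each library left out in turn the count stayed at 1 in S2Ba and was 4 to 6 in S2Bb and 0 to 1 in SS. Adam33 had log2 differences of -0.75 ± 0.14 in S2Ba (adjusted p = 0.000694) and -0.66 ± 0.14 in S2Bb (adjusted p = 0.000745). Adam17, the sheddase of tumour necrosis factor, rose in S2Bb by 0.38 (adjusted p = 0.00265), and Adam19 had a difference of -0.75 ± 0.20 in SS (adjusted p = 0.0184). Adam19 means were also lower on high salt in the congenic strains. They were 29.6 ± 7.0 against 42.5 ± 6.4 in S2Bb and 35.1 ± 8.9 against 41.4 ± 9.4 in S2Ba (SD).

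Of 24 listed matrix proteins, many of them substrates of these enzymes, 21 were measured; 6 rose and 3 fell in S2Ba, 3 rose and 4 fell in S2Bb, and 1 rose and 0 fell in SS. These are 42.9%, 33.3% and 4.76% of the list, beside 15.2%, 22.1% and 8.38% of all genes, so the SS share was below that of all genes. Leaving out each library in turn gave 4 to 10 called in S2Ba, 7 to 8 in S2Bb and 0 to 2 in SS. Postn, which encodes periostin, was the gene that rose in SS, by 1.29 (adjusted p = 0.0167). It also rose by 2.42 in S2Ba (adjusted p = 2.36e-05) and 2.03 in S2Bb (adjusted p = 2.95e-05). It averaged 2708 ± 840.1 in S2Ba on high salt and 533 ± 245 on normal salt, 2114 ± 1053 in S2Bb on high salt and 504 ± 207 on normal salt, and 1092 ± 125 in SS on high salt and 487 ± 237 on normal salt (SD, n = 5 or 6). Fn1, the fibronectin gene, rose by 1.46 in S2Ba (adjusted p = 0.00144) and 1.33 in S2Bb (adjusted p = 0.00133). The fibrillar collagen gene Col1a1, whose procollagen is cut by Adamts2, had a log2 difference of -1.24 ± 0.28 in S2Ba (adjusted p = 0.00278). Col5a1, another fibrillar collagen gene, had one of -0.74 ± 0.18 in S2Bb (adjusted p = 0.00361). Mean levels of these 2 genes were lower on high salt in the other strains too. Col1a1 averaged 3187 ± 1211 against 6077 ± 1201 in S2Bb and 4064 ± 1557 against 6540 ± 1444 in SS (SD). Col5a1 averaged 601 ± 130 against 995 ± 384 in S2Ba and 863 ± 205 against 1088 ± 143 in SS.

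The 12 members that were not measured held 1 to 153 reads over the 34 libraries. Mmp3, a stromelysin, had 153 reads, Adamts19 86, Mmp8, the neutrophil collagenase, 38, Adamts20 37, Mmp10 23, Mmp7 17 and Mmp21 17. Mmp20 had 7, Adamts13, the von Willebrand factor protease, 5, Mmp1 5, Mmp1b 3 and Mmp28 1. Mmp1 and Mmp1b are close copies, so their reads could have been shared or lost in the authors' counting. Of the reads of these 12 genes, SS normal-salt replicates 1 and 2 held 44 and 55, against 1 to 29 in each other library. These genes were left out of the main test and were fitted only in the setting with no filter on low values.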

How the data were processed

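Total RNA from at most 100 mg of frozen aorta with an RNA integrity number of at least 8 was made into TruSeq total RNA libraries and sequenced in pairs of 75 bases, per the labels' protocols. The submitters' processing notes name STAR 2.3.1, edgeR 3.6.8, R 3.2.3, bcl2fastq 1.8.4 and FastQC, with no role or order. Neither build nor annotation, counting step or use of strand is given in the sources used here. The authors deposited 1 table of signal values per gene. Each value is a whole number of reads scaled by one factor per library, as found from the values: within 0.01 of a read, 100.0% of the values of every library came out whole, in 34 libraries with 8753735 to 15168833 reads each. The 29 rows with no gene symbol held at most 0.0195% of a library's reads and were kept among the 26106 listed.

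The test was limma 3.58.1 with a mean-variance trend (R 4.3.3) on log2(value + 0.5), over the 13475 genes whose mean over all libraries was 0.5 or more, in 1 model of 6 groups with 9 contrasts and Benjamini-Hochberg adjustment over all genes per contrast. Calls were made at an adjusted p below 0.05. A fold on this scale understates the change of low genes. The 12631 other genes were not in this test. The procedure was tested on simulated data. Members and lists were chosen with earlier results of these data known. Values per library were given for members called in at least 2 contrasts and for the 4 TIMPs, Mmp2, Mmp14 and Adamts1; the others are given by range. Of the partner lists, at most 4 called genes with the smallest adjusted p were named per list and contrast.

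Alternatives were a pseudocount of 1, no filter, TMM scaling, only the groups compared, edgeR 4.0.16 and DESeq2 1.42.0 on the recovered reads, 2 principal components of 17 clock genes as covariates, 8 surrogate variables (sva 3.50.0) as covariates, and leaving out each library in turn. Leaving out the 3 cartilage- and macrophage-rich libraries, and leaving out SS normal-salt replicates 1 and 2, were added after the data were seen. Promoter sequences and gene neighbours come from RefSeq (GRCr8); 38 of 49 members had a promoter entry. The columns of the table were matched to samples by name, and replicates carry numbers that only name them.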

Additional observations from a re-analysis of the deposited data

Results flagged for a closer look

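In each group of 5 or 6 libraries, the highest or lowest value of the 16 members given by library was compared with its nearest neighbour, as a share of the range of the group (Dixon's 95% limit). Of 96 such groups 10 had a library apart, and chance gives about 1 in 20. S2Bb high-salt replicate 1 gave 3 of the 10: Timp1 at 112, above the next at 66.9, Timp3 at 607, below the next at 949, and Adamts15 at 42.1, below the next at 108. In the same library the macrophage marker sum was 797, the highest of all; the part of other cells in these values was not tested.

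SS high-salt replicate 1 had Mmp14 at 271, above the next at 173, and is the library of that group with Arntl at 74.3, against at most 11.4 in the others. SS high-salt replicate 2 had Adamts9 at 283, above the next at 194. S2Ba normal-salt replicate 4 had Adamts17 at 8.62, above the next at 4.17, and S2Ba normal-salt replicate 2 had Timp3 at 1502, above the next at 1097. S2Bb normal-salt replicate 2 had Adamtsl3 at 82.7, above the next at 64.7, and Mmp16 at 55.2, above the next at 44.7. S2Bb normal-salt replicate 1 had Mmp14 at 311, above the next at 255.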

How the results depend on the processing

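Of 36 called results of single members, 5 held under all settings and without each library (Adamts17, Adamtsl3, Adamtsl4 and Timp1 for salt in S2Bb, Adamts2 for salt in S2Ba) and 14 were lost only with the surrogate variables. The count of members called for salt in S2Ba was 15 and became 1 with surrogate variables. For salt in S2Bb it was 13, 7 with surrogate variables and 8 without the 3 cartilage- and macrophage-rich libraries. For salt in SS it was 3, 1 with no filter, 9 with only the groups compared, 5 by DESeq2, 0 with clock components and 8 without these 3 libraries. For S2Ba against SS on high salt it was 4, 0 with no filter, with clock components and with surrogate variables, 2 with TMM scaling and 7 by DESeq2. On normal salt edgeR gave 1 for S2Ba against SS, and S2Bb against SS gave 3 by edgeR and with surrogate variables, 2 by DESeq2, and 0 with clock components and without SS normal-salt replicates 1 and 2. The normal-salt calls of S2Bb against SS other than Adamtsl3 were Mmp9 and Mmp13 by edgeR, and Mmp9 by DESeq2. With surrogate variables they were Adamts1 and Mmp13. The S2Bb response minus the SS response gave 1 with only the groups compared and 2 by DESeq2, with Mmp9 among the latter. Mmp9 and Mmp13 count as measured through SS normal-salt replicate 3 alone. The cause of these shifts was not tested.

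Leaving out each library in turn gave 14 to 17 members for salt in S2Ba, 10 to 13 in S2Bb and 1 to 5 in SS, 0 to 1 for S2Bb against SS on normal salt, 0 to 8 for S2Ba against SS on high salt and 0 to 1 for the S2Bb response minus the SS response. The Adamtsl5 difference for salt in S2Bb reversed to 0.027 with surrogate variables. No paired analysis was possible because replicate numbers follow accession order and the labels name no shared animal or batch. Depth limits the 12 members under the minimum, which were left out of the main test and fitted only with no filter on low values.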

Other observations

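In RefSeq (GRCr8) all 4 TIMP genes overlap another gene, and for 3 of these it is a synapsin gene. Syn1, which overlaps Timp1, had a mean value of 0.0858, Syn3, which overlaps Timp3, 0.44, and Syn2, which overlaps Timp4, 0.256, while Cep295nl, which overlaps Timp2, had 8.17. These overlaps are of whole gene spans, and exons were not compared. Use of strand is not stated, so whether reads of such pairs were mixed is not known. Saxo2, which overlaps Adamtsl3, had a mean value of 0.152.

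Values of adjacent members stand side by side here. Adamts1 and Adamts5 are neighbours on chromosome 11; in S2Ba on high against normal salt Adamts5 had a log2 difference of -0.68 ± 0.19 (adjusted p = 0.014) and Adamts1 one of -0.15 ± 0.40 (adjusted p = 0.839). Adamts15 and Adamts8 are neighbours on chromosome 8, with -0.98 ± 0.20 (adjusted p = 0.000881) for Adamts15 and -0.37 ± 0.26 (adjusted p = 0.343) for Adamts8. Whether neighbours differ from each other was not tested.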
